A study of Mus musculus with 12 samples.

Results

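Inhibition of MEK was compared with inhibition of PI3K in mouse acute myeloid leukaemia (AML) cells driven by mutant RAS. Of the 12 RNA-seq libraries of the study, the 3 treated with PD325901 were set against the 3 treated with GDC0941. The comparison covered the genes whose mean over these 6 libraries was at least 1 FPKM (fragments per kilobase of transcript and scaled to mapped fragments, a level corrected for gene length and library size), which left 10248 of the 23234 genes in the deposited table. Psap, a lysosomal precursor protein gene, was left out because it was listed at 0 in every PD325901 library while the GDC0941 libraries held 3855, 5821 and 6377 FPKM.

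All 12 libraries came from primary AML cells of genotype NRASG12V/Mll-AF9 and of an (FVB/n X C57/BL/6J) F1 strain background, so every group carried both the activated RAS allele and the Mll-AF9 fusion. The cells were kept in RPMI medium with serum and the cytokine GM-CSF, and RNA was taken at 24 h. The 2 groups compared received 20 µM PD325901 or 20 µM GDC0941. Vehicle (DMSO) and 26 µM RAD001, an inhibitor of mTOR complex 1, had 3 libraries each and give context here without a test. Their libraries also entered the fit that estimated the variation. The labels name neither the promoters behind the transgenes nor how many leukaemias were used, and nothing in them says that the replicates were separate cultures or animals, so p-values here reflect nothing beyond the variation among the libraries of a group, which may be technical. PD325901 and GDC0941 are unrelated in structure and were used at the same concentration, which does not match them for potency, and no other dose or time was measured.

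RAS proteins signal through several branches. In one, RAF kinases activate MEK1 and MEK2, which activate the ERK kinases, and ERK switches on immediate-early transcription factors, MYC and cyclin D1 together with phosphatases and Sprouty proteins that restrain the pathway. In another, class I PI3K makes the membrane lipid that recruits AKT, and AKT holds FOXO transcription factors in the cytoplasm and activates mTOR complex 1, which drives ribosome production and lipid synthesis. PD325901 blocks MEK1 and MEK2, and GDC0941 blocks the catalytic subunits of class I PI3K. Mll-AF9 leukaemias are blocked at a myeloid progenitor stage and hold features of both granulocytes and monocytes.

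The relative depth of the 6 libraries, estimated from the step sizes of low FPKM values, ran from 0.874 to 1.14 of the first DMSO library. Spearman correlations across genes were 0.985 to 0.994 within PD325901, 0.966 to 0.986 within GDC0941 and 0.878 to 0.906 between them. In every group the library numbered 1 correlated less with libraries 2 and 3 than these did with each other. The values were 0.985 and 0.985 against 0.994 in PD325901, and 0.971 and 0.966 against 0.986 in GDC0941. They were 0.980 and 0.981 against 0.996 in DMSO, and 0.974 and 0.972 against 0.996 in RAD001. Single libraries also stood apart in some gene lists. The first GDC0941 library did so in cell cycle and sterol genes, and the first PD325901 library in lysosome, monocyte and antigen presentation genes. Leukocyte and myeloid marker genes were expressed in both groups, which does not tell leukaemic from normal myeloid cells. The pan-leukocyte gene Ptprc had 132 ± 6.90 FPKM (SD, n = 3) with PD325901 and 102 ± 9.04 with GDC0941, and the monocyte receptor gene Csf1r had 245 ± 4.22 and 189 ± 22.2. The granulocyte gene Elane was low with GDC0941, at 29.6 ± 6.77 FPKM with PD325901 and 2.66 ± 0.443 with GDC0941. Lyz2, a defining myeloid gene, was listed at 0 in all 12 libraries and was not used.

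Differences below are log2(FPKM + 1) with PD325901 minus log2(FPKM + 1) with GDC0941, given ± the standard error of a limma fit, so a negative value means a lower level under the MEK inhibitor. A gene was called at an adjusted p under 0.05. Of the 10248 genes, 2184 (21.3%) were higher with PD325901 and 3141 (30.6%) were lower. Differences of at least 1 were called for 649 genes (6.33%) higher and 627 genes (6.12%) lower. All 3 PD325901 libraries lay above all 3 GDC0941 libraries for 2410 genes (23.5%) and below them for 3414 (33.3%). The median difference over all genes was -0.06. These shares are the background for every list of genes below. The lists hold textbook members of each pathway or cell type, and counts are given over the members that passed the 1 FPKM filter. Because a member could pass it through the higher group alone, these counts describe the members and are not a test of the list.

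**Figure D1:**
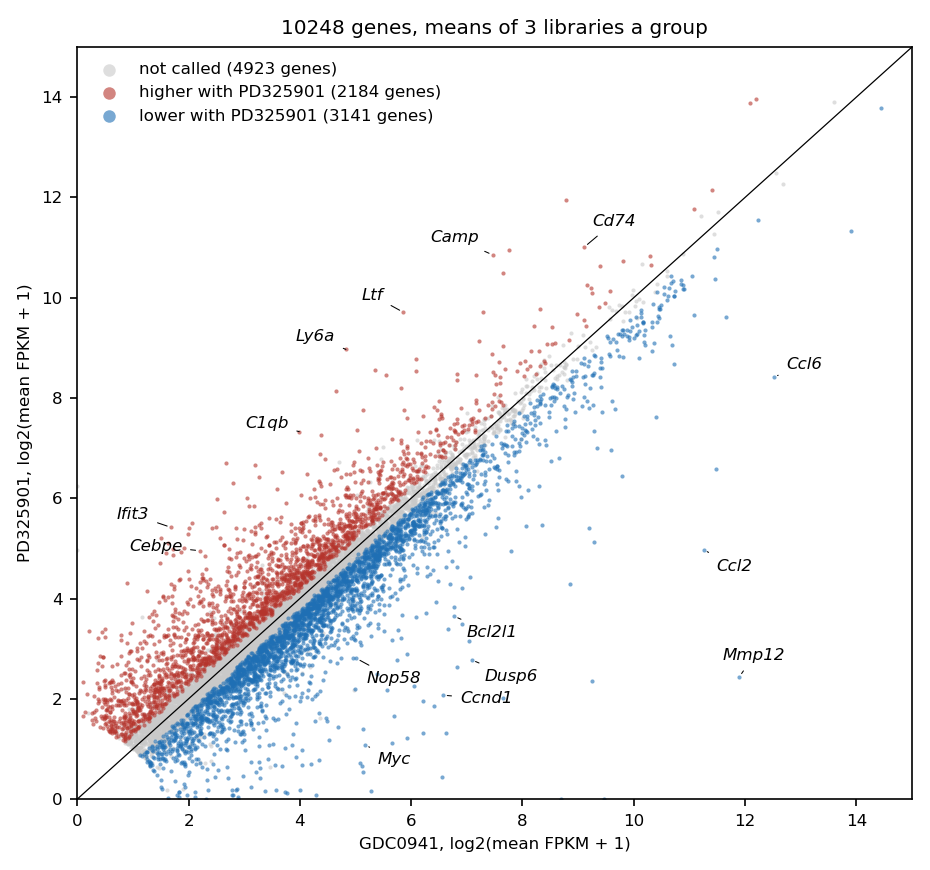
Mean level of each of the 10248 genes under PD325901 (y axis) against GDC0941 (x axis), both as log2(mean FPKM + 1), with n = 3 libraries a group; the line marks equal levels. Red points are the 2184 genes called higher with PD325901, blue points the 3141 called lower and grey points the 4923 not called, and the genes farthest below the line include Mmp12 and Ccl2.

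The genes that ERK switches on were lower under the MEK inhibitor than under the PI3K inhibitor wherever a difference was called. Of 34 listed genes 27 passed the filter, 22 of them (81.5%) were lower with PD325901 and none was higher, with a median difference of -2.64. None of the 22 overlapped between the groups. Dusp6, the phosphatase that removes the activating phosphates of ERK, had 5.24, 6.67 and 5.63 FPKM with PD325901 and 147, 126 and 133 FPKM with GDC0941. Every GDC0941 library thus held more Dusp6 than any PD325901 library, and the DMSO libraries, at 118, 66.7 and 78.3 FPKM, lay with the GDC0941 side. The difference was -4.31 ± 0.17 (adjusted p = 3.52e-08), a 23.1-fold difference of mean FPKM.

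The transcription factors of the same list followed. Egr1, an immediate-early factor, had 0.400, 0.530 and 0.439 FPKM with PD325901 against 22, 34.3 and 45.7 FPKM with GDC0941 (difference -4.53 ± 0.23, adjusted p = 1.60e-07). Myc, the growth regulator, had 1.20, 1.17 and 0.962 FPKM against 35.3, 33.2 and 36.5 FPKM, a difference of -4.09 ± 0.10 (adjusted p = 1.16e-09). Every GDC0941 library lay above every DMSO library in both genes, and the DMSO levels were 18.1, 16.6 and 12.1 FPKM for Egr1 and 25.1, 19.5 and 23 FPKM for Myc. The ETS factors Etv5 and Etv1, which are standard readouts of ERK output, were nearly silent with PD325901: Etv5 had 0.127, 0.0731 and 0.0418 FPKM against 18.2, 11.1 and 8.79 FPKM (-3.61 ± 0.19), and Etv1 differed by -2.83 ± 0.13. Spry2, a Sprouty feedback inhibitor, differed less, at -1.56 ± 0.31 (adjusted p = 0.00139).

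Ccnd1, which encodes cyclin D1, had 3.89, 2.69 and 3.05 FPKM with PD325901 and 169.5, 59.5 and 53.9 FPKM with GDC0941. The first GDC0941 library was well above the other two, and the groups still did not overlap (-4.31 ± 0.43, adjusted p = 1.27e-05). The DMSO libraries held 131, 176 and 177 FPKM, so 2 of the 3 GDC0941 libraries lay below all DMSO libraries and all PD325901 libraries lay far lower. Not every listed gene differed. Ier3, an early response gene, had 65.3, 80.5 and 66.3 FPKM against 44.9, 58.9 and 85.8 FPKM, and its 95% interval of -0.21 to 0.62 included 0. Mcl1, an anti-apoptotic gene that is also listed with the ERK output, differed by -0.03 ± 0.11, with an interval of -0.27 to 0.21. The ETS motif CCGGAAG (either strand) stood in 1 of the list's 18 RefSeq promoters (5.56%), against 22.7% of tested genes.

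**Figure D2:**
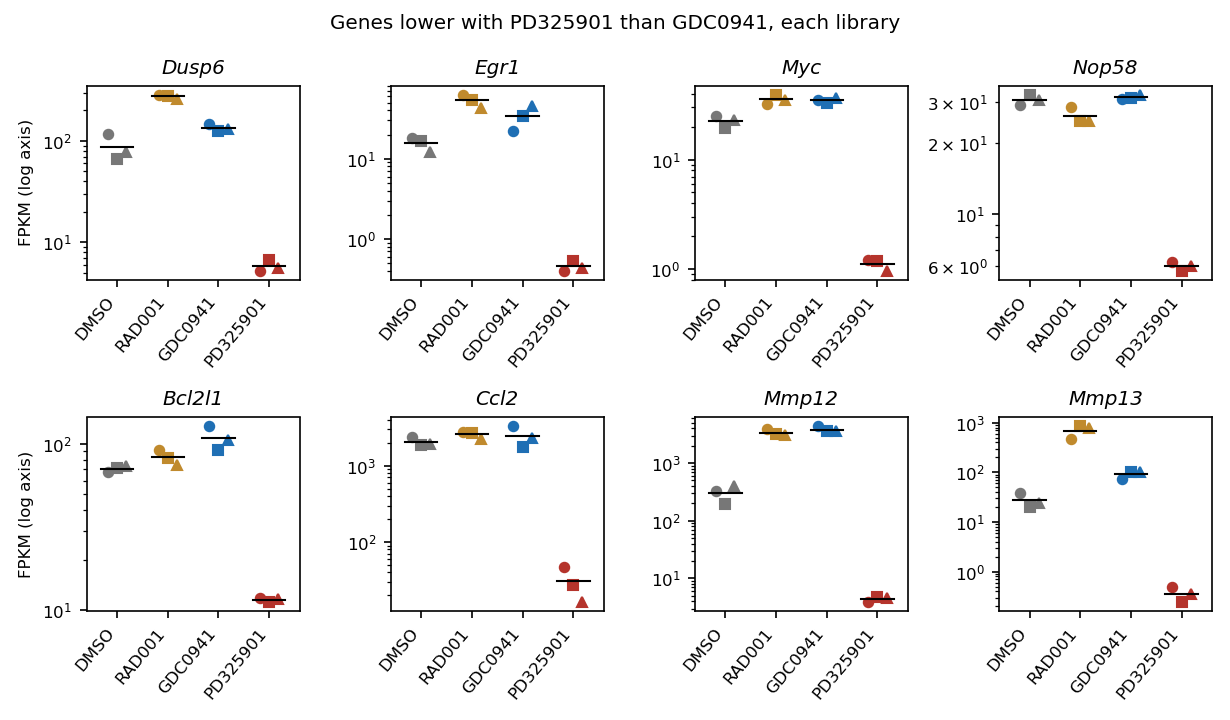
FPKM (log axis) of 8 genes in each of the 12 libraries by group, with circles, squares and triangles for replicates 1, 2 and 3 and a line at the mean of n = 3. In all 8 genes the 3 PD325901 libraries lie below every GDC0941 and every DMSO library, and for Mmp12 they lie between 3.85 and 4.82 FPKM.

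The kinases themselves differed much less than their output. Of 27 genes tested for RAS, RAF, MEK and ERK components and their regulators, 10 were higher and 7 were lower with PD325901, with a median of 0.01, which was -0.09 without the third GDC0941 library. Nras, the gene family member that is mutated in these cells, had 27.9, 24.9 and 26 FPKM with PD325901 and 42.8, 40.8 and 39.2 FPKM with GDC0941 (-0.62 ± 0.07, adjusted p = 4.33e-05); the table does not separate the transgene from the native gene. Among the drug's own targets, Map2k1 (MEK1) was lower with PD325901 by a small amount, -0.37 ± 0.11 (adjusted p = 0.0148), while Map2k2 (MEK2) had 46.2, 40.2 and 41.4 FPKM against 55.6, 42.1 and 50.6 FPKM and an interval of -0.43 to 0.03. Mapk3 (ERK1) was higher with PD325901 (0.41 ± 0.10, adjusted p = 0.00544). The small differences of Map2k1 and Map2k2 each depended on single libraries: Map2k1 had an adjusted p of 0.0519 without the second PD325901 library and 0.0541 without the first GDC0941 library, and Map2k2 had 0.0193 without the second GDC0941 library.

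Regulators upstream of RAF moved further. Rasa2, a GTPase-activating protein that switches RAS off, had 1.06, 1.35 and 1.40 FPKM with PD325901 and 7.13, 7.82 and 5.84 FPKM with GDC0941 (-1.80 ± 0.11), and Nf1, another RAS-inactivating protein, differed by -0.77 ± 0.12. In the other direction stood Rasgrp2, an exchange factor that activates RAP and RAS proteins, at 16.3, 14 and 11.7 FPKM against 2.90, 3.39 and 4.45 FPKM (1.72 ± 0.17), and Rasgrp4, a related factor, at 1.00 ± 0.11. The ribosomal S6 kinases downstream of ERK split, with Rps6ka1 higher (0.86 ± 0.07) and Rps6ka3 lower (-0.99 ± 0.14). The intervals of the kinase gene Araf (-0.25 to 0.17) and the scaffold gene Shoc2 (-0.24 to 0.26) allowed only small differences.

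On the PI3K side, 6 of 22 genes for PI3K subunits, lipid phosphatases and AKT were higher with PD325901 and 6 were lower (median 0.07). The lower count was 3 in the fit limited to the 6 libraries, 3 without the first PD325901 library and 3 without the second GDC0941 library. Pik3cd, the catalytic subunit most used by leukocytes, had 30.1, 38.9 and 38.7 FPKM with PD325901 and 30.9, 38 and 34.4 FPKM with GDC0941, and the groups overlapped (0.06 ± 0.11, interval -0.19 to 0.30). Pik3ca and Pik3cg were slightly lower with PD325901 (-0.26 ± 0.10 and -0.37 ± 0.12). Neither call held without the first PD325901 library (adjusted p = 0.0972 for Pik3ca and 0.0609 for Pik3cg) or without the second GDC0941 library (0.114 and 0.0769), and Pik3ca also lost it without the second PD325901 library (0.138) and without the first GDC0941 library (0.105). Pik3cb was lower by more: 10.2, 10.2 and 10.2 FPKM with PD325901 against 34.1, 24.7 and 19.2 FPKM with GDC0941 (-1.23 ± 0.24, adjusted p = 0.00119).

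Some genes that restrain PI3K signalling were higher under the MEK inhibitor. Inpp4a, an inositol phosphatase gene, had 11.6, 11.7 and 11.9 FPKM with PD325901 and 4.57, 5.49 and 5.86 FPKM with GDC0941 (1.02 ± 0.13, adjusted p = 7.39e-05), and Inpp5d, which encodes the phosphatase SHIP1, had 62.8, 61 and 64.1 FPKM against 47.7, 37.1 and 31.4 FPKM (0.70 ± 0.12). Akt1 and Akt2 were not called, with intervals of -0.23 to 0.06 and -0.20 to 0.19. Mtor was not called either (-0.06 ± 0.14). Eif4e, the cap-binding translation factor, was the lowest member of the mTOR list relative to GDC0941, with 13.5, 13 and 13.6 FPKM against 42.2, 32.2 and 34.4 FPKM (-1.37 ± 0.11, adjusted p = 2.23e-06).

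FOXO factors are released when PI3K is blocked, and their targets did not separate in a single direction. Of 30 tested members of the list of FOXO targets and PI3K feedback genes, 11 were higher with PD325901, 6 were lower and the median was 0.20. Without the first PD325901 library the higher count was 7, and without the third it was also 7. Irs2, the insulin receptor substrate that FOXO induces, was lower with PD325901, at 2.49, 3.02 and 2.66 FPKM against 5.79, 5.58 and 3.72 FPKM (-0.68 ± 0.14, adjusted p = 0.00185). All 3 GDC0941 libraries were above the DMSO libraries, which had 1.99, 1.97 and 1.90 FPKM of Irs2. Higher with PD325901 were Tsc22d3, a glucocorticoid and FOXO target (1.60 ± 0.20), Ccng2, an atypical cyclin (0.75 ± 0.12), Klf2, a quiescence factor (0.96 ± 0.30), and Sesn1, a stress sensor (1.18 ± 0.20). The call for Klf2 was lost without the first PD325901 library (adjusted p = 0.0669) or the second GDC0941 library (0.0714). Pik3ip1, an inhibitor of PI3K, was not called (0.33 ± 0.19). The FOXO motif GTAAACA (either strand) stood in 3 of 24 promoters of the list (12.5%, against 3.07% of tested genes).

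Secreted inflammatory proteins gave some of the largest differences in the table. Of 12 CC chemokine genes 11 passed the filter, 7 of them were lower with PD325901 and 1 was higher (median -3.34). Ccl2, which attracts monocytes, had 47.5, 27.5 and 16.2 FPKM with PD325901 and 3273, 1773 and 2277 FPKM with GDC0941 (-6.36 ± 0.32, adjusted p = 1.36e-07), while the DMSO libraries held 2337, 1846 and 1891 FPKM. Ccl7, the neighbouring monocyte chemokine, differed by -6.64 ± 0.58, with the GDC0941 libraries spread from 226 to 1273 FPKM. Ccl6 had 309.8, 339 and 372 FPKM against 4990.0, 6087 and 6474 FPKM (-4.09 ± 0.18), and all 3 GDC0941 libraries exceeded the DMSO libraries, which held 725, 1029.8 and 1250.3 FPKM. Ccl4 and Ccl9 differed by -4.50 ± 0.42 and -3.34 ± 0.15. Ccl5 went the other way, with 129, 71.6 and 77.7 FPKM under PD325901 against 36.9, 27.5 and 37.1 FPKM (1.39 ± 0.23, adjusted p = 3.80e-04). Ccl17 and Ccl22 were not called, with wide intervals of -1.33 to 0.44 and -1.97 to 0.85. Without the libraries numbered 1 of every group Ccl22 was called lower, at -0.85 (adjusted p = 3.68e-04).

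The CXC chemokines were divided as well. Cxcl2, a neutrophil attractant, had 0.645, 0.594 and 0.510 FPKM with PD325901 and 37.9, 14.5 and 49.3 FPKM with GDC0941 (-4.30 ± 0.64), whereas Cxcl10, an interferon-induced chemokine, had 10.8, 8.89 and 10.4 FPKM against 1.88, 1.81 and 1.53 FPKM (2.01 ± 0.28, adjusted p = 1.25e-04). Of 20 tested cytokine and NF-kB feedback genes, 5 were lower and 3 were higher; without the libraries numbered 1 of all groups these counts became 11 and 6. Tnf was lower with PD325901 (-2.41 ± 0.39), as were Il1rn, the interleukin-1 receptor antagonist (-2.08 ± 0.38), and Csf1, the macrophage growth factor (-2.16 ± 0.47). Il18 was higher, at 50.5, 32.9 and 33.9 FPKM against 5.69, 8.99 and 9.75 FPKM (2.14 ± 0.29).

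Matrix proteins and proteases showed the widest range of differences of the lists described here. Of 21 genes 17 passed the filter, 11 of them (64.7%) were lower with PD325901 and 5 were higher, with a median of -1.68. Mmp12, the macrophage elastase, had 3.85, 4.82 and 4.56 FPKM with PD325901 and 4348, 3535 and 3541 FPKM with GDC0941 (-9.46 ± 0.21, adjusted p = 5.29e-10). Its 3 DMSO libraries, at 331, 198 and 395 FPKM, lay between the groups, far from both. Mmp13, a collagenase, had 0.487, 0.240 and 0.346 FPKM against 73.4, 102 and 104 FPKM (-6.10 ± 0.26). Fn1, which encodes fibronectin, had 3.37, 2.87 and 2.38 FPKM with PD325901 against 104, 69 and 45.9 FPKM with GDC0941 (-4.19 ± 0.39), and the DMSO libraries, at 4.44, 2.48 and 6.86 FPKM, overlapped the PD325901 libraries. Spp1, the osteopontin gene, differed by -4.68 ± 0.69, with the first GDC0941 library at 5683 FPKM and the others at 1401 and 1505 FPKM. The proteases of mature neutrophils were higher instead: Mmp25 had 20.2, 19.2 and 19.5 FPKM against 2.12, 3.36 and 2.18 FPKM (2.56 ± 0.15), and Mmp9 differed by 1.98 ± 0.41.

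Adhesion molecules divided by member. Of 20 integrin, selectin and related genes, 8 were higher and 11 were lower (median -0.54); the higher count was 5 without the second or without the third PD325901 library. Selp, the P-selectin gene, had 0.792, 1.70 and 1.54 FPKM with PD325901 against 47.8, 69.6 and 61.1 FPKM with GDC0941 (-4.70 ± 0.20). The integrin chains Itgam (CD11b), at 227, 226 and 230.0 FPKM against 539, 595 and 476 FPKM (-1.23 ± 0.08), and Itgax (CD11c, -2.94 ± 0.40) were lower. Itga4, a chain of the VLA-4 receptor for fibronectin, was higher, at 18.5, 21.1 and 22.8 FPKM against 6.98, 6.30 and 4.05 FPKM (1.71 ± 0.15, adjusted p = 5.40e-06). Among the 20 genes that lay farthest below their GDC0941 level were Car4, a membrane carbonic anhydrase (-5.10 ± 0.29), Pdpn, the mucin podoplanin (-4.98 ± 0.51), Tnfsf9, the ligand of the receptor 4-1BB (-4.88 ± 0.19), Tm7sf4, the fusion receptor DC-STAMP (-4.35 ± 0.26), and Kcnn4, a calcium-activated potassium channel (-4.23 ± 0.24). Snora64, a small nucleolar RNA, also met the rule, but it was listed at 0 in all PD325901 libraries, so no fold is given.

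Every listed ribosome biogenesis gene was lower under the MEK inhibitor. All 38 ribosome biogenesis genes passed the filter and all 38 were called lower, against 30.6% of all genes, with a median of -1.14. Nop58, a core protein of the box C/D snoRNA particle, had 6.26, 5.72 and 6.0 FPKM with PD325901 and 30.8, 31 and 32.1 FPKM with GDC0941 (-2.21 ± 0.08, adjusted p = 1.55e-08). Mybbp1a, a nucleolar protein, had 13.7, 12.6 and 12.5 FPKM against 36.9, 37.5 and 34.3 FPKM (-1.42 ± 0.07), and Nop2, a ribosomal RNA methyltransferase, had 7.52, 6.82 and 7.61 FPKM against 20.4, 19.3 and 20.5 FPKM (-1.34 ± 0.08). The replicates of each group were close together, and the GDC0941 libraries lay near the DMSO libraries, which held 29, 32.1 and 30.6 FPKM of Nop58 and 18.5, 19.7 and 18.6 FPKM of Nop2. Relative to the DMSO mean, the list median per library was -1.06, -1.11 and -0.99 with PD325901 and 0.08, 0.17 and 0.12 with GDC0941.

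MYC binds the palindrome CACGTG, and this E-box was searched in the RefSeq promoter windows (300 bases that end shortly after the start site, GRCm38.p6, which is not the mm9 build of the FPKM table). Of the 33 listed ribosome biogenesis genes with a promoter in that table, 10 (30.3%) held the motif, as did 12.5% of the 8272 tested genes with a promoter and 7.15% of all promoters in the table. The palindrome reads the same on both strands. Members with and without it had close medians, -1.20 and -1.19. The promoters of 2 named members that hold the motif are shown 5′ to 3′ on the gene's strand, with the E-box in capitals. In Nop2 (chr6:125131633-125131932, plus strand) it begins 60 bases before the start site, and in Mybbp1a (chr11:72441077-72441376, plus strand) it lies downstream of it, beginning at base 41. A match describes these letters and is not evidence of binding.
Nop2: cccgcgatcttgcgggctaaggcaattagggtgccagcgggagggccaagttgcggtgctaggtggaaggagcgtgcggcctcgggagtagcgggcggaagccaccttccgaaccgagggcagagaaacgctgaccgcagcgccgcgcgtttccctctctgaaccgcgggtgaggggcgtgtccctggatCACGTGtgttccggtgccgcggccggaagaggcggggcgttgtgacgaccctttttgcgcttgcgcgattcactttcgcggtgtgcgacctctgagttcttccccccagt
Mybbp1a: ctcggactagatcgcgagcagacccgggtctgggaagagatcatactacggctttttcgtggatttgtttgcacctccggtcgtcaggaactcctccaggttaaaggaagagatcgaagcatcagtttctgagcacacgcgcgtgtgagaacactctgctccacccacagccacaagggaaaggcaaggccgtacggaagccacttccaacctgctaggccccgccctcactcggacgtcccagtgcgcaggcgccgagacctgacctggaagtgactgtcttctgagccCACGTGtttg

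Other parts of the protein production machinery were lower by less. Of 32 tested cytosolic ribosomal protein genes, 31 were lower with PD325901 (median -0.64). Rpl23 had 449, 438 and 482 FPKM against 757, 877 and 933 FPKM (-0.90 ± 0.10). Ribosomal protein genes have many near-identical pseudogenes, which makes the single values less certain. Of 28 proteasome subunit genes 24 were lower (median -0.41), among them Psma6 (-0.67 ± 0.08). After quantile normalization the counts of lower genes were 20 of 32 for ribosomal proteins and 14 of 28 for the proteasome. Of 20 aminoacyl-tRNA synthetase genes 11 were lower; Hars, for histidine, had 18, 17.8 and 18.1 FPKM against 37.6, 32.2 and 33.1 FPKM (-0.89 ± 0.07), and Nars, for asparagine, was not called (interval -0.23 to 0.23). Of 19 tested genes of the endoplasmic reticulum stress response, chaperones among them, 15 were lower (median -0.68). They were led by Creld2 at 25.3, 20.5 and 19.7 FPKM against 69.7, 56.5 and 76.6 FPKM (-1.58 ± 0.12) and included Hsp90b1, the chaperone GRP94 (-1.19 ± 0.10).

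Lipid synthesis genes were lower with PD325901 as well. In the sterol list 24 of 26 genes passed the filter, 18 of them (75%) were lower and none was higher, with a median of -0.82; Hmgcs1 was listed at 0 in all 6 libraries. Fdft1, which encodes squalene synthase, had 7.14, 8.60 and 9.13 FPKM with PD325901 and 30.5, 17.5 and 20.1 FPKM with GDC0941 (-1.32 ± 0.19, adjusted p = 1.48e-04). Dhcr7, for a late step of cholesterol synthesis, was not called (-0.16 ± 0.24). Srebf1 and Srebf2, the transcription factors that drive lipid and sterol genes, differed by -1.14 ± 0.10 and -0.84 ± 0.12. The first GDC0941 library was the highest of its group for Fdft1 and Srebf2. In the list median relative to DMSO it stood at 0.51, while the other GDC0941 libraries stood at -0.24 and -0.22 and the PD325901 libraries at -1.05, -0.73 and -0.68. Without the first GDC0941 library 13 genes were lower, 1 was higher and the median was -0.67, and without the first PD325901 library 12 were lower. The sterol element TCACNCCAC (either strand) stood in 0 of the 17 promoters of the list in the RefSeq table, against 1.33% of tested genes, which says only that these letters are not in those windows.

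Of 18 tested fatty acid synthesis genes 10 were lower and 3 were higher. Scd2, a stearoyl-CoA desaturase, had 5.66, 11.3 and 11.5 FPKM with PD325901 against 184, 61.1 and 55.9 FPKM with GDC0941 (-3.11 ± 0.49), and Acsl3, an acyl-CoA synthetase, differed by -2.35 ± 0.28. Acly, the ATP citrate lyase gene, was not called (-0.30 ± 0.17). Cholesterol efflux and LXR target genes leaned the other way, with 8 of 16 higher and 2 lower (median 0.43). Cyp27a1, which makes the LXR ligand 27-hydroxycholesterol, had 18.9, 20.8 and 18.4 FPKM against 3.59, 5.24 and 7.43 FPKM (1.71 ± 0.21), and Ch25h, which makes 25-hydroxycholesterol, had 0, 0.114 and 0.0435 FPKM against 20.6, 14.7 and 20 FPKM (-4.20 ± 0.23).

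In glucose metabolism 10 of 30 tested genes were lower, 3 were higher and the median was -0.25. Slc2a1, the glucose transporter GLUT1, had 19, 20.2 and 23.4 FPKM with PD325901 and 84.9, 71.9 and 74.2 FPKM with GDC0941 (-1.84 ± 0.25), while Slc2a3, the transporter GLUT3, was higher (1.61 ± 0.38). Without the first GDC0941 library 5 glucose genes were higher, 7 were lower and the median turned to 0.02. Without the libraries numbered 1 of all groups 7 were higher, and after quantile normalization 6 were lower. Gpi1, glucose-6-phosphate isomerase, did not pass the test, with an interval of -0.26 to 0.16. Of 29 mitochondrial respiration genes 2 were higher and 5 were lower (median -0.01), and their differences were small. The balance of these few calls depended on the scaling, with 7 higher, 3 lower and a median of 0.12 after quantile normalization. Without single libraries 3 to 8 of them were lower (3 without the first GDC0941 library and 8 without the second). The 95% intervals of all 29 lay within 1 of 0 on the log2 scale and those of 21 lay within 0.5. Sdha, a subunit of complex II, had 65.9, 55.9 and 58 FPKM against 64.2, 54.6 and 57.3 FPKM (0.03 ± 0.08).

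Genes of S phase showed few called differences. Of 36 tested S phase genes 2 were higher and 5 were lower (median -0.04), and of 29 tested mitosis genes 3 were higher and none was lower (median 0.34). Mki67, a proliferation marker, had 8.35, 11.1 and 12.2 FPKM with PD325901 and 6.56, 3.84 and 2.73 FPKM with GDC0941 (1.15 ± 0.23, adjusted p = 0.00154). E2f1, a driver of S phase genes, had 12.2, 9.97 and 10.7 FPKM against 15, 8.99 and 10.3 FPKM (-0.04 ± 0.17, interval -0.41 to 0.33). Pcna, the replication clamp, was lower with PD325901 (-0.77 ± 0.18).

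These counts rest on the first GDC0941 library. Its mitosis median was -0.75 relative to the DMSO mean, while the other GDC0941 libraries stood at -1.76 and -1.87 and the PD325901 libraries at -1.28, -1.11 and -0.96. All 6 libraries thus lay below DMSO, and 2 of the 3 GDC0941 libraries lay lowest. Without the first GDC0941 library 18 of the mitosis genes and 8 of the S phase genes were higher with PD325901. Without the libraries numbered 1 of every group the counts were 26 and 19. Cenpa, a centromere histone that was not called (0.26 ± 0.21), shows the pattern at 12.7, 15.8 and 16.1 FPKM with PD325901 and 15.5, 9.57 and 12 FPKM with GDC0941. E2F sites (TTTCCCGC or TTTGGCGC, either strand) stood in 11 of the 31 S phase promoters in the table (35.5%, against 3.69% of tested genes), and members with and without a site had medians of -0.05 and 0.08. The CHR element TTTGAA stood in 17 of 25 mitosis promoters (68%, against 14.5%), with medians of 0.36 and 0.30.

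Cell cycle regulators in G1 differed more firmly, in both directions. Of 17 tested genes in the list of D-type cyclins and CDK inhibitors, 7 (41.2%) were higher with PD325901 and 7 were lower (median 0.25). Besides Ccnd1, Ccnd2 (cyclin D2) was lower with PD325901, at 1.09, 2.12 and 2.35 FPKM against 8.73, 10 and 6.78 FPKM (-1.75 ± 0.19), while Ccnd3 (cyclin D3) was higher, at 123, 104 and 107 FPKM against 59.8, 57.3 and 59.9 FPKM (0.90 ± 0.10, adjusted p = 2.41e-05). The CDK4 and CDK6 inhibitor genes Cdkn2b (p15) and Cdkn2a (p16 and p19Arf) were lower with PD325901, while another CDK inhibitor gene of the list was called higher. Cdkn2b had 2.44, 1.16 and 1.51 FPKM against 29.9, 23.3 and 21.5 FPKM (-3.27 ± 0.35), and Cdkn2a differed by -1.36 ± 0.17. Rb1, the retinoblastoma gene, was not called (0.10 ± 0.10).

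Genes of the BCL2 family, which set the threshold for apoptosis, differed in both directions. Of 18 tested members 7 were higher and 8 were lower. Bcl2l1, which encodes the anti-apoptotic protein BCL-XL, had 11.7, 11.1 and 11.7 FPKM with PD325901 and 127, 92 and 105 FPKM with GDC0941 (-3.11 ± 0.11, adjusted p = 2.05e-08). Bcl2 itself had 0.320, 0.916 and 0.763 FPKM against 11.5, 7.51 and 6.66 FPKM (-2.51 ± 0.19). No library of one group reached the range of the other for either gene. The DMSO libraries held 67.1, 71.3 and 73.3 FPKM of Bcl2l1, below every GDC0941 library, and 8.02, 6.80 and 6.71 FPKM of Bcl2, which overlapped GDC0941. The anti-apoptotic genes Bcl2a1a and Bcl2a1d, near-identical copies that share reads, differed by -1.96 ± 0.17 and -1.78 ± 0.15.

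The BH3-only genes, whose proteins trigger apoptosis, included several that were higher with PD325901. Bmf had 8.23, 8.47 and 9.06 FPKM with PD325901 against 1.20, 2.61 and 2.24 FPKM with GDC0941 (1.70 ± 0.18), Bcl2l11 (BIM) had 27.9, 28.7 and 29.5 FPKM against 11.4, 14.1 and 12.1 FPKM (1.14 ± 0.10), and Pmaip1 (NOXA) differed by 1.36 ± 0.15. For Bcl2l11 the DMSO libraries, at 12.9, 12.8 and 13.2 FPKM, overlapped the GDC0941 libraries. Bax, an executioner of the family, was lower with PD325901 (-0.68 ± 0.09), and Bak1 was not called (interval -0.23 to 0.29).

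Most neutrophil genes were higher under the MEK inhibitor. In these bulk libraries fewer cells of a type and less RNA per cell cannot be told apart. Of 27 tested neutrophil maturation genes 20 (74.1%) were higher, against 21.3% of all genes, and 3 were lower (median 2.15). Ltf, the lactoferrin of secondary granules, had 1062, 716 and 730.2 FPKM with PD325901 and 13, 71.8 and 86.3 FPKM with GDC0941 (4.21 ± 0.74, adjusted p = 6.45e-04). Camp, the cathelicidin, had 2208, 1679.7 and 1655 FPKM against 61.4, 206 and 260.3 FPKM (3.61 ± 0.44), and Ngp, another secondary granule protein, differed by 3.34 ± 0.45. In each of the 3 genes the first GDC0941 library was the lowest, and no GDC0941 library reached a PD325901 library. Cebpe, the transcription factor of secondary granule genes, had 34.5, 25.9 and 29.6 FPKM against 2.98, 3.87 and 3.94 FPKM (2.75 ± 0.15, adjusted p = 2.71e-07). Its DMSO libraries, at 17.7, 15.1 and 14.1 FPKM, lay between the groups.

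Genes of earlier granulocytes were also mostly higher with PD325901 than with GDC0941, but not relative to DMSO. Relative to the DMSO mean, their list median was -0.13, -0.39 and -0.43 with PD325901 and -1.69, -1.46 and -1.47 with GDC0941. The neutrophil maturation median was 1.30, 0.80 and 0.90 with PD325901 and -1.25, -1.05 and -1.03 with GDC0941. Of 15 tested primary granule genes 12 were higher and 2 were lower (median 1.25). Elane, neutrophil elastase, had 37.3, 26.8 and 24.7 FPKM with PD325901 against 2.99, 2.83 and 2.16 FPKM with GDC0941 (3.05 ± 0.37), and the DMSO libraries held 44.2, 31.7 and 27.8 FPKM. Ms4a3, a marker of granulocyte and monocyte progenitors, differed by 1.98 ± 0.21. The receptor for G-CSF, Csf3r, was also higher, at 111, 106 and 98.4 FPKM against 35.2, 46.7 and 50.4 FPKM (1.25 ± 0.12), while Csf2ra, the receptor chain for the GM-CSF in the medium, was not called (-0.05 ± 0.10, interval -0.28 to 0.17). Among neutrophil genes, Mmp8 and Itgam were lower with PD325901 (-1.15 ± 0.22 and -1.23 ± 0.08), and Cxcr2 was not called (0.46 ± 0.20, adjusted p = 0.0765).

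**Figure D3:**
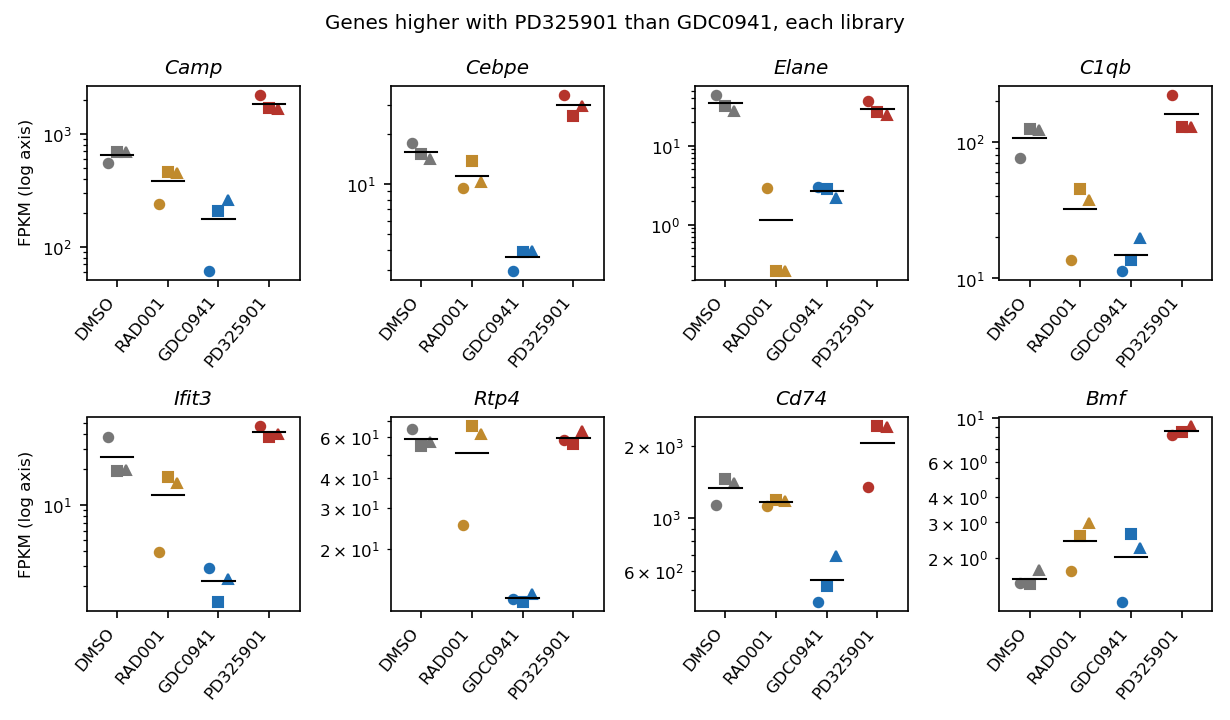
FPKM (log axis) of 8 genes in each of the 12 libraries by group, with circles, squares and triangles for replicates 1, 2 and 3 and a line at the mean of n = 3. In all 8 genes the 3 PD325901 libraries lie above every GDC0941 library, and for Elane, Ifit3 and Rtp4 the DMSO libraries lie closer to PD325901 than to GDC0941.

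Macrophage genes were divided between the drugs. Of 36 tested monocyte and macrophage genes 13 were higher with PD325901 and 11 were lower (median 0.08, and -0.07 without the first PD325901 library). Higher were the complement genes C1qb, at 222, 128 and 128 FPKM against 11.4, 13.6 and 19.6 FPKM (3.32 ± 0.40), and C1qc (3.47 ± 0.41), together with Mertk, a receptor for apoptotic cells (2.11 ± 0.27), and the Fc receptor gene Fcgr4 (2.25 ± 0.39). Lower were Cd14, the endotoxin co-receptor, at 39.1, 32 and 30.7 FPKM against 729.8, 481 and 655 FPKM (-4.14 ± 0.27, adjusted p = 8.32e-07), the scavenger receptor gene Msr1 (-2.62 ± 0.15), and the Fc receptor genes Fcgr2b (-2.63 ± 0.19) and Fcgr3 (-1.68 ± 0.10). The Fc receptor genes are close paralogs and share sequence. Acp5, an acid phosphatase best known from osteoclasts, had 144, 81.1 and 82.6 FPKM with PD325901 and 3.99, 5.96 and 6.19 FPKM with GDC0941 (3.99 ± 0.27). The lineage regulators Irf8 and Irf5 were not called (0.23 ± 0.12 and -0.08 ± 0.14).

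The 20 genes that lay farthest above their GDC0941 level included other macrophage and transport genes. Aif1, a macrophage calcium-binding protein, had 65.3, 58.2 and 62.6 FPKM with PD325901 and 3.54, 5.0 and 5.54 FPKM with GDC0941 (3.48 ± 0.19). Sepp1, the selenium carrier selenoprotein P, differed by 3.38 ± 0.30, Fcgrt, the neonatal Fc receptor, by 3.30 ± 0.21, and Fabp3, a fatty acid binding protein, by 3.41 ± 0.24. Id3, an inhibitor of basic helix-loop-helix factors, had 29.8, 31 and 31.9 FPKM against 0.542, 3.17 and 3.13 FPKM (3.42 ± 0.39), whereas its relative Id1 was lower (-2.01 ± 0.16).

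Antigen presentation genes were higher in 17 of 26 tested cases (65.4%) and lower in 2 (median 0.77). Cd74, the invariant chain of MHC class II, had 1349.8, 2419 and 2412 FPKM with PD325901 and 443, 516 and 695 FPKM with GDC0941 (1.87 ± 0.22). H2-Aa and H2-Ab1, the class II chains, differed by 1.61 ± 0.20 and 1.46 ± 0.21. For all 3 genes the first PD325901 library was the lowest of its group and still lay above every GDC0941 library. The costimulatory gene Cd80 was lower with PD325901 (-1.10 ± 0.10), and Cd86 was not called (-0.07 ± 0.22, interval -0.56 to 0.41).

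Interferon-stimulated genes were higher with PD325901 with few exceptions. All 29 passed the filter, 26 (89.7%) were higher with PD325901 and 1, Ifitm3, was lower, with a median of 1.55. Ifit3 had 46.9, 38.2 and 40.3 FPKM with PD325901 and 2.89, 1.46 and 2.31 FPKM with GDC0941 (3.75 ± 0.43, adjusted p = 3.09e-05). Ifit1 had 15.9, 13.5 and 16.4 FPKM against 2.59, 1.82 and 1.89 FPKM (2.40 ± 0.31), and Rtp4 had 58.2, 56.1 and 63.3 FPKM against 12.3, 11.9 and 13 FPKM (2.17 ± 0.27). These genes encode antiviral proteins and are induced by type I interferon. Usp18 and Irf1 missed the threshold (adjusted p = 0.0857 and 0.0868), and both passed it without the libraries numbered 1 of every group (0.00259 and 5.41e-04).

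The separation lay mostly on the side of the PI3K inhibitor. The list median per library relative to the DMSO mean was -0.05, -0.05 and 0.10 with PD325901 and -1.76, -1.56 and -1.71 with GDC0941. The first RAD001 library, at -1.13, stood with GDC0941 while the other two, at 0.17 and 0.10, stood with DMSO. Rtp4 had 64.4, 54.8 and 56.7 FPKM in DMSO, so its PD325901 libraries lay within the DMSO range and its GDC0941 libraries lay below it. Ifitm3 had 621, 751 and 806 FPKM with PD325901, 1203, 1244 and 1389 FPKM with GDC0941 and 1252, 1299 and 1229.5 FPKM in DMSO (-0.82 ± 0.13); its call was lost after quantile normalization (adjusted p = 0.0535).

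The core of the interferon-stimulated response element, GAAANNGAA, was searched on both strands in the same promoter windows; this motif was chosen after the values were seen. Of the 21 interferon genes with a RefSeq promoter, 13 (61.9%) held it, against 9.13% of tested genes and 8.56% of all promoters. Members with it had a median difference of 1.55 and those without it 1.69. The promoters of Ifit1 (chr19:34640639-34640938, plus strand) and Ifit3 (chr19:34583279-34583578, plus strand) hold 3 matches each, all on the opposite strand and printed in capitals as they read on the gene's strand. In Ifit1 they begin 109, 103 and 84 bases before the start site, with the first pair overlapping, and in Ifit3 155, 121 and 102 bases before it.
Ifit1: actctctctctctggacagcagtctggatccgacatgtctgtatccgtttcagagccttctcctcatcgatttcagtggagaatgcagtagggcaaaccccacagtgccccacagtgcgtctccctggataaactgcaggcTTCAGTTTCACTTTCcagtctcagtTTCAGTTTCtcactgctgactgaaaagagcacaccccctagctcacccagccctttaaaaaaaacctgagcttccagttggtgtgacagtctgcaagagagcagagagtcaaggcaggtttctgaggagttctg
Ifit3: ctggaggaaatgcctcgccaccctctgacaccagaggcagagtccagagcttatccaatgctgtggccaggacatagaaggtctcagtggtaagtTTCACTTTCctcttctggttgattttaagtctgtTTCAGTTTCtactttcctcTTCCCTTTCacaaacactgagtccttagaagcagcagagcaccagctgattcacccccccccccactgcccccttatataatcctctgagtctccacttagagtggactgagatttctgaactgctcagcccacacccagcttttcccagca

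**Figure D4:**
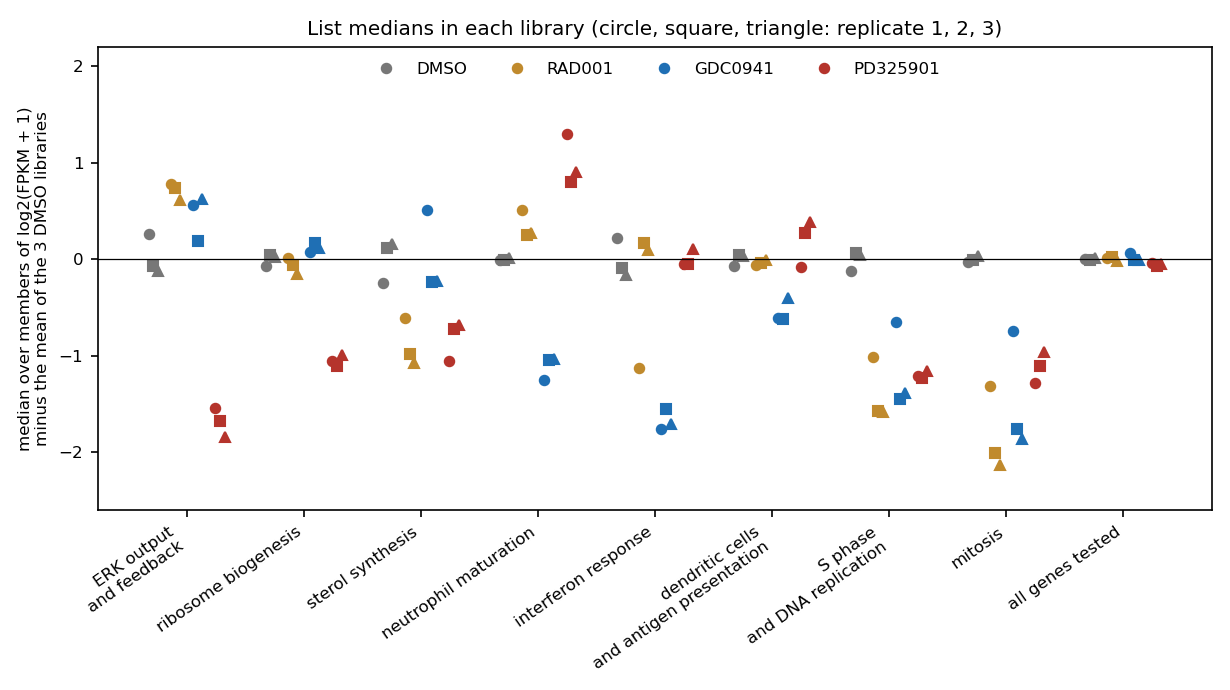
Median over the tested members of a list of log2(FPKM + 1) minus the DMSO mean (y axis), for 8 lists and for all genes tested, in each of the 12 libraries by group (colours) and replicate (symbols). The ERK output median lies between -1.85 and -1.54 with PD325901 and between 0.18 and 0.62 with GDC0941, the interferon median lies between -1.76 and -1.56 with GDC0941, and the first GDC0941 library stands apart in S phase and mitosis.

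Among stem and progenitor cell markers more were higher than lower with PD325901. Of 22 listed genes 11 passed the filter, 6 were higher and 1 was lower (median 0.41). Ly6a, the gene of the stem cell antigen Sca-1 and also interferon-inducible, had 219, 606 and 675 FPKM with PD325901 and 21.7, 27.8 and 32.7 FPKM with GDC0941 (4.0 ± 0.50); it has close paralogs such as Ly6c1, which differed by 3.29 ± 0.48. Kit, the stem cell factor receptor, had 3.95, 3.56 and 4.05 FPKM against 1.51, 1.34 and 1.02 FPKM (1.09 ± 0.16), and Flt3, another progenitor receptor, had 5.99, 5.0 and 5.05 FPKM against 0.962, 1.01 and 0.550 FPKM (1.79 ± 0.16). Gata2 was lower with PD325901, at 0.964, 0.913 and 1.06 FPKM against 28.1, 9.28 and 8.90 FPKM (-2.86 ± 0.52).

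The program of the Mll-AF9 fusion showed few differences. Of 25 listed genes of the MLL fusion and HoxA program 17 passed the filter, 2 were higher and 4 were lower (median -0.16); with the replicate number as a block 7 were lower, and without the libraries numbered 1 of every group the median was 0.05. Myb, which the fusion sustains, had 4.52, 5.09 and 5.43 FPKM with PD325901 and 1.24, 1.93 and 2.07 FPKM with GDC0941 (1.14 ± 0.12, adjusted p = 1.98e-05), and both lay below the DMSO libraries at 7.39, 8.01 and 7.54 FPKM. Cdk6 was lower with PD325901 (-1.62 ± 0.43), as were Bmi1 (-0.75 ± 0.11) and Jmjd1c (-0.94 ± 0.16). Mef2c and Runx1 were not called, with intervals of -0.55 to 0.23 and -0.41 to 0.03.

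Markers of other blood and stromal cells were mostly low in the 6 libraries, and those that passed the filter were mostly higher with PD325901. Of 12 T and NK cell genes, 10 B cell genes, 12 erythroid genes, 9 megakaryocyte genes, 12 stromal and endothelial genes and 12 mast cell, basophil and eosinophil genes, 1, 1, 1, 2, 1 and 4 passed it. Cd3d had 4.40, 3.43 and 3.28 FPKM with PD325901 and 0, 0.669 and 0.255 FPKM with GDC0941 (1.87 ± 0.34). Other T cell genes, below the filter, differed from Cd3d in the PD325901 library numbered 1. Cd3e and Cd3g were listed at 0 there, where Cd3d was highest. Libraries 2 and 3 of PD325901 held 1.06 and 0.812 FPKM of Cd3e and 2.47 and 2.00 FPKM of Cd3g, above every GDC0941 library. Cd3e, Cd3g, Cd4 and Lck were lowest in the library numbered 1 of every group. Cd79b had 7.95, 6.71 and 6.62 FPKM against 0.643, 0.874 and 2.19 FPKM (1.91 ± 0.23). Another 3 B cell genes were listed at 0 in all 6 libraries. Pf4, a platelet gene that monocytes also express, differed by 1.72 ± 0.37 and had its highest levels in DMSO and RAD001. The summed level of the T and NK cell list was 5.34 to 10.5 FPKM with PD325901 and 0.181 to 2.21 FPKM with GDC0941. Cd3d alone gave 4.40 FPKM of this sum in the PD325901 library numbered 1. The summed level of the B cell list was 7.60 to 8.63 FPKM with PD325901 and 1.05 to 2.77 FPKM with GDC0941. The megakaryocyte list, led by Pf4, summed to 15.5 to 43.6 FPKM with PD325901 and 6.70 to 8.07 FPKM with GDC0941, but to 78.8 to 136 FPKM in DMSO and 216 to 280.4 FPKM with RAD001. The mast cell, basophil and eosinophil list summed to 17 to 19.3 FPKM with PD325901 and 9.52 to 30.3 FPKM with GDC0941, against 41.7 to 226 FPKM in DMSO. The part of such cells in the higher neutrophil, antigen presentation and interferon levels was not tested.

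**Figure D5:**
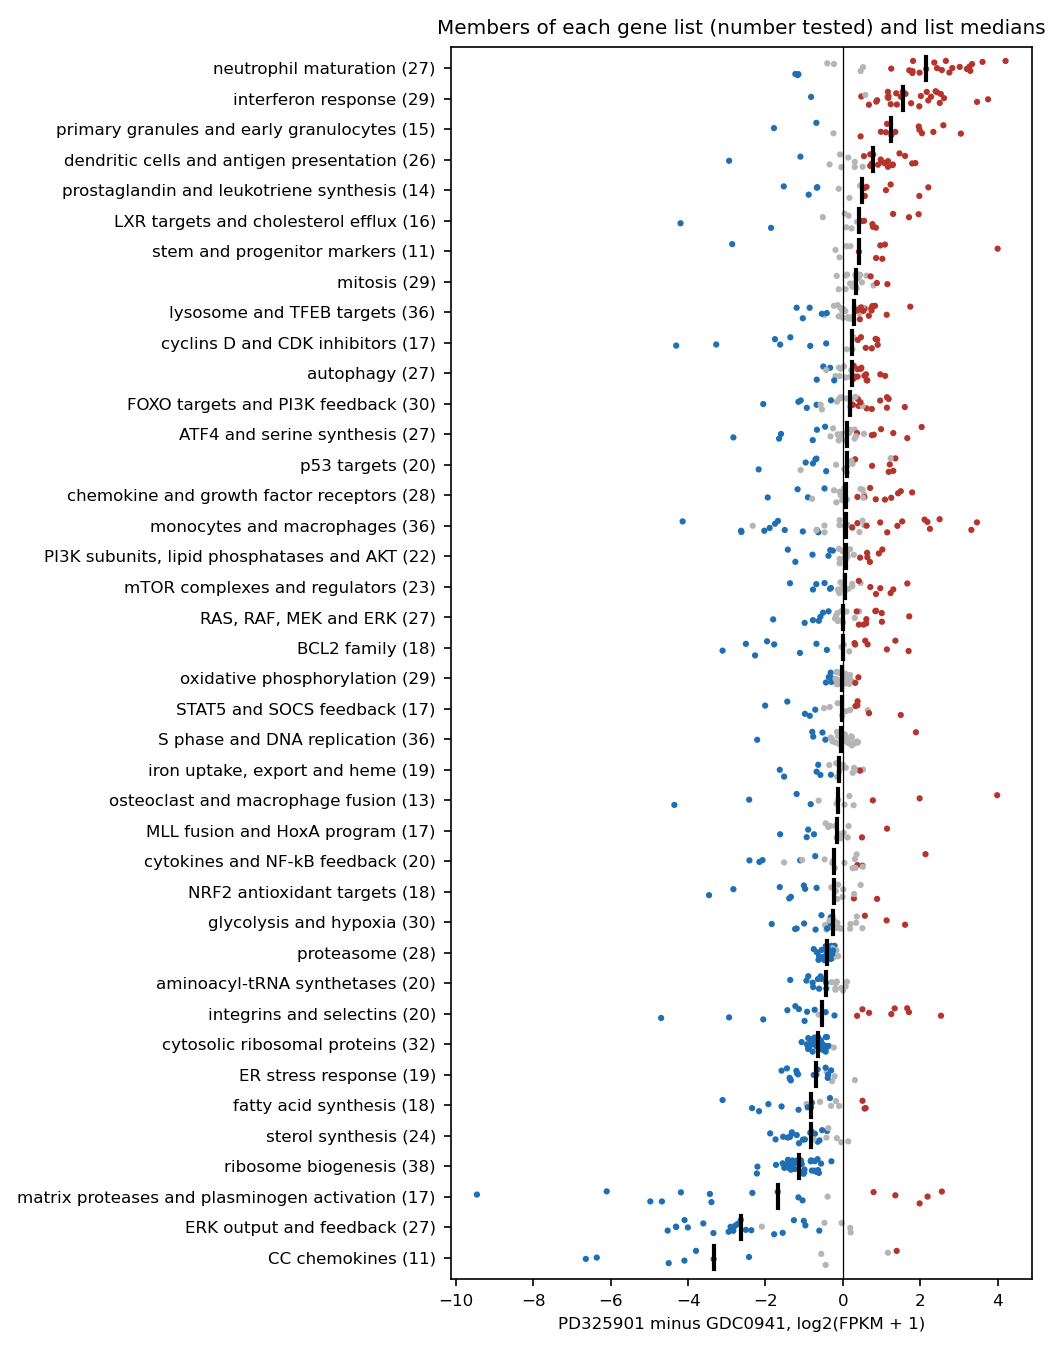
Difference of each tested member (points) between PD325901 and GDC0941 on the log2(FPKM + 1) scale (x axis) for the lists with at least 10 tested members (y axis, number tested in parentheses), ordered by their median (black bars). Red points were called higher with PD325901, blue points lower and grey points were not called; CC chemokines have the lowest median, -3.34, and neutrophil maturation the highest, 2.15.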

How the data were processed

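Total RNA of 12 samples was sequenced after library preparation with Illumina protocols, per the labels. Per the submitters' processing notes, the authors used TopHat2 2.0.4, Cuffdiff and the mm9 build, and they deposited a single table of FPKM values. Which annotation, which Cuffdiff version and which scaling across libraries they used is not stated in the sources at hand. Exact zeros in such a table can be failed estimates. Depth in reads is unknown, so no counting interval was computed, and relative depth (0.847 to 1.21 over the 12 libraries) was estimated from the step sizes of low values.

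Values were analysed as log2(FPKM + 1), which understates differences of low genes. With R 4.3.3 and limma 3.58.1, a model of 4 group means was fitted to the 12 libraries together (residual df 8, eBayes with trend), and PD325901 was contrasted with GDC0941, two-sided, with Benjamini-Hochberg adjustment over 10248 genes, a threshold of 0.05 and 95% intervals. Of 4 groups, 2 were compared. DMSO and RAD001 gave levels and, through the shared fit, part of the spread behind every standard error, interval and p-value. The members and the 47 gene lists (1100 entries, 946 of them tested) were chosen with earlier results of these data known. Named genes are the 20 largest called differences each way (no overlap, at least 5 FPKM in the higher group), per list the 4 (or fewer) called members of lowest adjusted p each way and up to 2 uncalled members with the tightest intervals, a fixed set of pathway genes, and the leading markers of other cells; not all are printed, and some are withheld and not reported here. Promoters are RefSeq windows of GRCm38.p6, with 8272 tested genes matched by symbol. The fit was tested on simulated data for this comparison over 10248 genes. Of planted differences, 50.7% of those of 0.5, 92.5% of 1 and 100% of 2 were recovered, and 3.57% of calls were false. Differences of 0.5, 1 and 2 were planted in 67, 67 and 66 genes, far fewer than the 5325 called in the real data. These shares thus need not hold for the real data. Alternatives covered the pseudocount, the filter, scaling, the libraries fitted, limma's settings, the replicate block and leaving out libraries.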

Additional observations from a re-analysis of the deposited data

How the results depend on the processing

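The pseudocount moved the counts of differences of at least 1 the most, since it sets how far low genes are pulled together: 847 genes higher and 814 lower with 0.1 FPKM, and 336 and 334 with 5 FPKM, against 649 and 627. The counts of genes called, 2184 higher and 3141 lower, stayed within 1.5 times under every alternative run. Without a filter they were 2750 and 3175, and with a filter of 5 FPKM 1596 and 2565. After median-ratio scaling they were 2432 and 2853, and after quantile normalization 2496 and 2854. Fitted to the 6 compared libraries alone they were 1926 and 2681, and 4524 of the 5325 calls were kept. Leaving out each replicate in turn gave 1851 to 2296 higher and 2662 to 3096 lower, and leaving out the libraries numbered 1 of every group gave 2687 and 3367. The share of calls that were higher ran from 38.4% to 46.7%. No called gene was called in the opposite direction under any alternative. Of the 176 genes named in the text, 6 lost their call under at least 1 of the 18 alternatives (Csf1r, Ifitm3, Klf2, Map2k1, Pik3ca and Pik3cg) and 12 that were not called gained one, among them Cxcr2, Irf1 and Usp18. Ier3 (adjusted p = 0.0246) and Acly (0.0219) were called without the third GDC0941 library, and Cd86 (0.0191) without the first.

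Deviations of same-numbered PD325901 and GDC0941 libraries from their group means correlated at 0.238, 0.264 and -0.137. Those of differently numbered libraries correlated at -0.418 to 0.340. The library numbered 1 stood apart in every group. It was also the lowest of each group for the T cell genes Cd3e, Cd3g, Cd4 and Lck, all at low levels, whereas Cd3d was highest there with PD325901. Whether libraries of the same number share a source was not tested, and the main fit did not use the replicate number. With the replicate block 2357 genes were higher and 3279 were lower. With 3 libraries a group, and depth in reads unknown, small differences can be missed. In the simulated data 50.7% of planted differences of 0.5 were recovered, with far fewer genes changed than were called here.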

Other observations

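Among lysosome and autophagy genes more were called higher than lower with PD325901, by small amounts. Of 36 tested lysosome genes 14 were higher and 5 were lower than with GDC0941 (median 0.28), and of 27 autophagy genes 13 were higher and 4 were lower (median 0.23). Relative to DMSO the lysosome median was 0.52, 0.14 and 0.17 in the PD325901 libraries and 0.30, 0.07 and 0.08 in the GDC0941 libraries, so the groups overlapped. Without the first PD325901 library 10 lysosome genes were higher, 7 were lower and the median was 0.15, and without the libraries numbered 1 of every group 18 were higher and 9 were lower. Ctsh, which encodes cathepsin H, had 453, 397 and 405 FPKM with PD325901 against 166, 196 and 209.9 FPKM with GDC0941 (1.13 ± 0.19), and Ulk1, the kinase that starts autophagy, had 12.7, 15.6 and 15.8 FPKM against 5.38, 8.11 and 7.79 FPKM (0.97 ± 0.14). Mitf, a relative of the lysosomal regulator TFEB, was lower (-1.19 ± 0.10), as was the protease gene Ctsl (-1.04 ± 0.18). Lamp2, a lysosomal membrane protein, was not called, with an interval of -0.19 to 0.23. TCACGTGA stood in 6 of 28 lysosome gene promoters (21.4%, against 2.44% of tested genes). The members with it had a median of 0.03 and those without it 0.31.

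Of 27 tested genes of the ATF4 response and serine synthesis, 7 were higher and 6 were lower with PD325901 (12 higher without the libraries numbered 1 of every group; the median of 0.11 was -0.04 without the second GDC0941 library). Of 18 NRF2 antioxidant targets 2 were higher and 8 were lower, and 13 were lower without the libraries numbered 1. Of 14 prostaglandin and leukotriene genes 7 were higher and 4 were lower, and 2 were lower without the first or the third GDC0941 library and without the second or the third PD325901 library. Psat1, an enzyme of serine synthesis, had 7.20, 8.77 and 9.81 FPKM with PD325901, 41.3, 24.6 and 23.7 FPKM with GDC0941 and 67.4, 73.3 and 74.1 FPKM in DMSO (-1.65 ± 0.18). Slc7a11, the cystine importer, differed by -2.83 ± 0.37, and Slc1a5, a glutamine importer, by -1.60 ± 0.09, while the stress genes Nupr1 (2.04 ± 0.25) and Sesn2 (1.30 ± 0.09) were higher. Hmox1, the heme oxygenase, had 484, 529 and 572 FPKM against 1415, 1622 and 1899 FPKM (-1.63 ± 0.24). Hpgds, the prostaglandin D synthase of blood cells, was higher with PD325901, at 17.2, 18.1 and 18.5 FPKM against 3.35, 2.93 and 3.01 FPKM (2.21 ± 0.18), as was Ptgs1, cyclooxygenase 1 (1.98 ± 0.17). Mdm2, the p53 ligase, was lower (-0.96 ± 0.09), and Trp53inp1, a p53 target, was higher (1.21 ± 0.19).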
